A study of Homo sapiens with 6 samples.

Results

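The genes described here encode the proteins of the mitochondrial ribosome, in THP-1 cells before and after differentiation with PMA. They were taken as every gene whose symbol starts with MRPL or MRPS followed by a digit and which has a probe set (a group of probes summarised to 1 value) that carries no other symbol. This gave 74 of the 18417 genes tested: 73 protein-coding genes and the pseudogene MRPS31P5. A further 4 probe sets joined such a symbol to that of another gene and were not used. Where a gene had several probe sets, the brightest by its mean over all arrays stood for it. THP-1 is an established line from a monocytic leukaemia, and PMA, a phorbol ester, drives such cells towards a macrophage-like state. The series compared 3 arrays of unstimulated cells with 3 arrays of cells given 200 nM PMA for 3 days and then kept 3 days without it. All cells were grown in RPMI with 10% FBS, 2.5 mM glutamate and 0.05 mM mercaptoethanol. No age, clone or further genotype enters the comparison, and all 6 arrays come from the same line. The labels do not say that replicates came from separate cultures, so the p-values cover only how far these arrays differ among themselves, and that spread may be technical.

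Mitochondria carry their own ribosomes, which translate the few messages of the mitochondrial genome, all of them for subunits of the respiratory chain and ATP synthase. The ribosomal RNAs are made inside the organelle, while every protein of the particle is encoded in the nucleus, made in the cytosol and imported. Many of these proteins descend from the bacterial ribosome and others are found only in mitochondria. Names starting with MRPL mark the large subunit, which forms peptide bonds, and names starting with MRPS the small subunit, which reads the message. MRPS18A and MRPS30 are exceptions that sit in the large subunit, and they are counted there.

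The values are log2 signals, 1 per probe set and array. The table's array medians were 6.20, 6.25 and 6.22 on unstimulated arrays 1 to 3 and lower, at 6.10, 6.14 and 6.17, on PMA arrays 1 to 3. Its lower quartiles ran from 4.46 to 4.57. All 74 genes lay above the lower quartile on every array, and 69 to 72 of them above the median. The groups differed as labelled: the scavenger receptor MSR1 went from 5.09 ± 0.40 to 11.08 ± 0.52 (mean log2 signal ± SD, n = 3 each), and of 9 measured monocyte and macrophage markers 6 rose and 1 fell. The gene that fell was LYZ, lysozyme, from 12.57 to 9.81, and the lysosomal marker CD68 did not pass (−0.24, adjusted p = 0.136). The lymphoid markers gave 1 call among 6 measured (CD79A, lower), erythroid and megakaryocyte markers 0 among 5 and fibroblast and epithelial markers 2 among 8 (KRT18 lower, PDGFRB higher). Levels of these markers differed widely. MS4A1 of B cells and EPCAM of epithelia lay below the lower quartile on every array. CD79B of B cells (6.38 to 6.65) and the keratin KRT18 (6.99 to 8.35) lay above every array's median. The part of other cell types in the results was not tested. In bulk RNA, fewer cells of a type and less RNA per cell cannot be told apart.

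Before any comparison of groups, 1 array stood apart in these genes. On the unstimulated replicate 1 array, 71 of the 74 genes (95.9%) were higher than on both other unstimulated arrays, against 39.4% of all genes tested. The median gene of the family lay 0.34 log2 units above the mean of the other unstimulated arrays, and the median of all genes lay 0.01 above it. The lead was largest for MRPL24 (0.86), MRPS34 (0.78) and MRPL4 (0.74), and the genes not above both others were MRPL10, MRPL36 and MRPL44. The family's median SD was 0.21 over the unstimulated arrays and 0.09 over the PMA arrays, where all genes had 0.13 and 0.12. Between unstimulated replicates 2 and 3 alone the family's median SD was 0.07. Other groups were displaced on the same array. The nuclear-encoded respiratory chain and ATP synthase subunits were above both other arrays in 64 of 68 genes (median lead 0.37) and the mitosis and replication genes in 12 of 16 (0.22). The cytosolic ribosomal proteins were so in 31 of 68 (0.01). The monocyte and macrophage markers had a median lead of −0.46, with CD14, a lipopolysaccharide co-receptor, at 7.51 there against 9.67 and 9.65. What set this array apart was not tested. Calls of the family and counts of the mitochondrial and ribosomal gene lists are given below with it and without it.

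**Figure D1:**
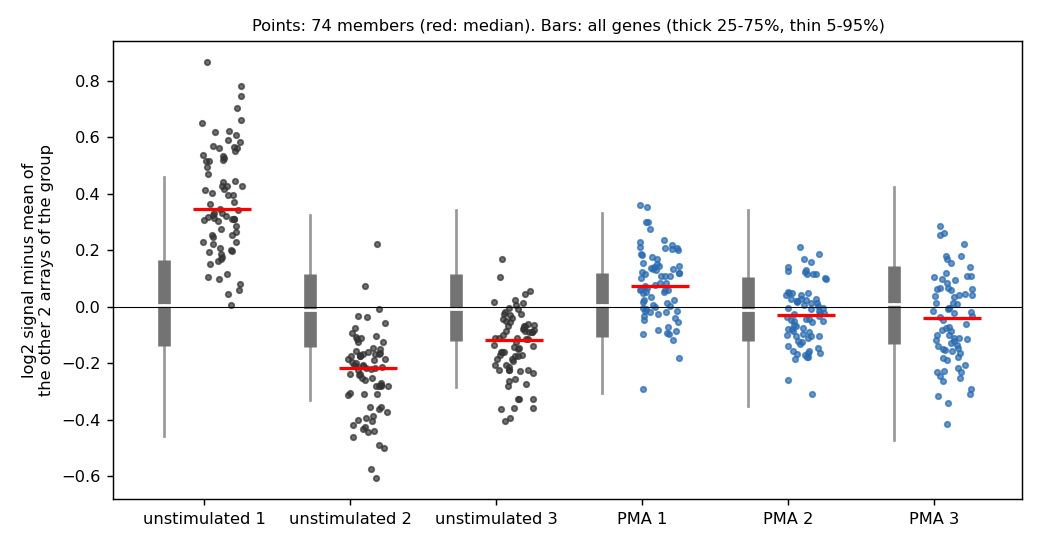
Each point is 1 of the 74 genes, plotted as its log2 signal on an array minus the mean of the other 2 arrays of its group; red lines are medians, and grey bars show the 25 to 75% (thick) and 5 to 95% (thin) range of all genes tested. The points of unstimulated replicate 1 lie almost wholly above 0 (median 0.34), while the medians of the PMA arrays lie between −0.04 and 0.07.

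The first question was which mitochondrial ribosomal protein genes differed between the macrophage-like cells and the unstimulated line. In limma with Benjamini-Hochberg adjustment over all genes (threshold 0.05), 7 of the 74 genes fell and 3 rose with PMA. That is 13.5% of the family, where 26.4% of all genes tested were called. By direction, 9.46% fell and 4.05% rose, where 13.2% of all genes fell and 13.2% rose. No call was large: the 10 folds lay between 1.28 and 1.72. The family's median log2 fold change (PMA minus unstimulated) was −0.09, and that of all genes −0.03. Without unstimulated replicate 1 the family's median was 0.01, with 6 genes lower and 13 higher, 25.7% of the family against 25.9% of all genes. The count of rises was 0 when unstimulated replicate 2, unstimulated replicate 3, PMA replicate 1 or PMA replicate 2 was left out. The falls became 4 without PMA replicate 2. Calls over all genes were fewer in these fits too, at 19.6%, 19.6%, 18% and 20.5% in turn, against 26.4% with all arrays. The counts differed with the scaling as well. Centring each array on its median gave 3 lower and 4 higher with a family median of 0.00. Of all calls 61.8% were then higher, against 50.1% without that step. Cyclic loess gave 6 lower and 7 higher with −0.02 (59.8% of all calls higher).

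**Figure D2:**
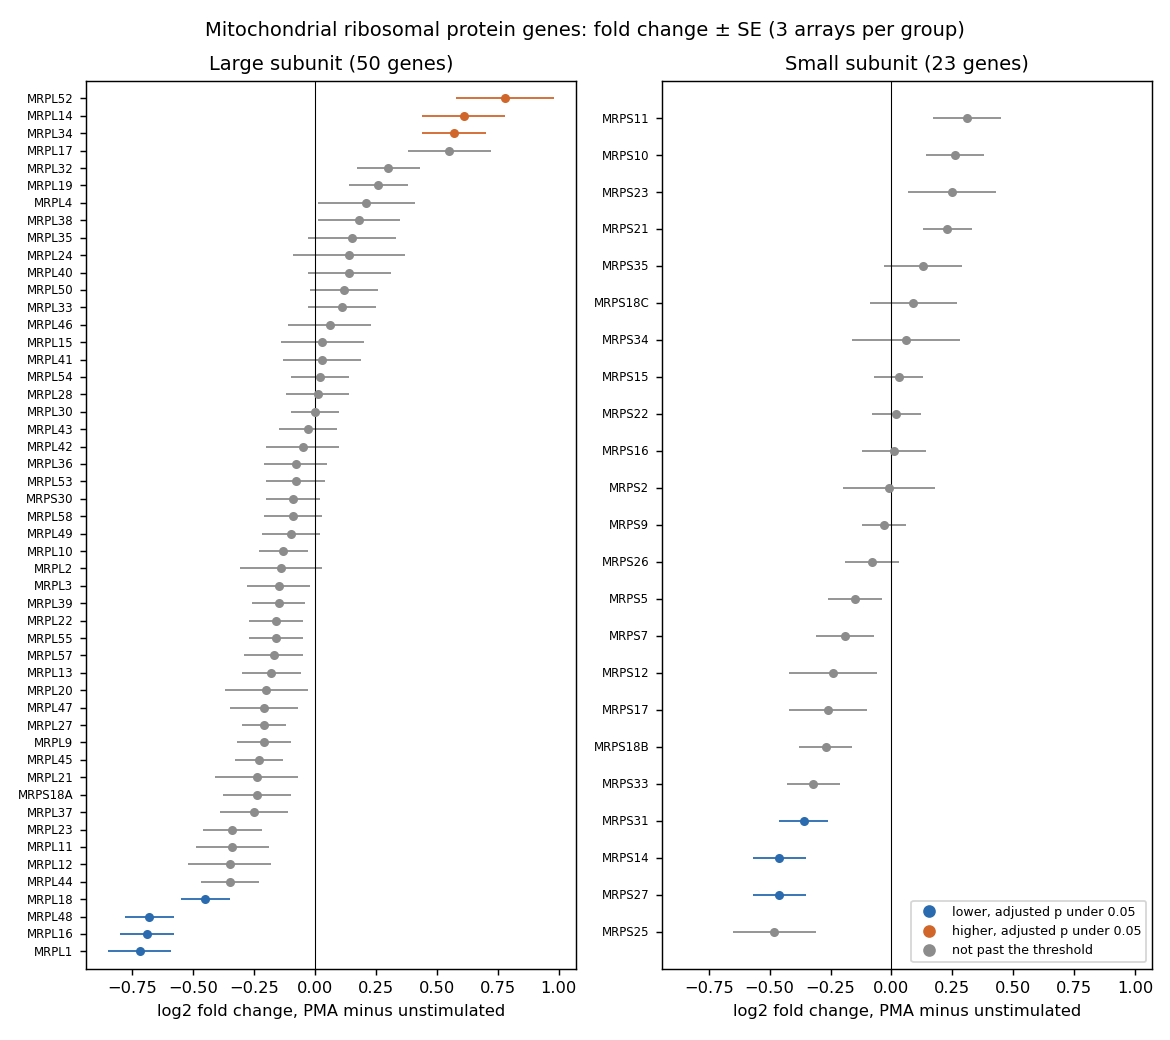
Points are log2 fold changes (PMA minus unstimulated) of the 73 protein-coding genes, 50 of the large and 23 of the small subunit, with bars of ± 1 standard error of the limma fit (3 arrays per group). Blue genes fell and orange genes rose past an adjusted p of 0.05; most points lie within 0.25 of 0.

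The falls were led by 3 proteins of the large subunit, and these kept their call under every alternative run, with or without any 1 array. MRPL1 forms the stalk that handles the tRNA as it leaves the ribosome. It read 7.71, 7.26 and 7.31 on the unstimulated arrays 1 to 3 and 6.74, 6.62 and 6.76 on the PMA arrays 1 to 3. The groups did not overlap, and the log2 fold change was −0.72 ± 0.13 (standard error; adjusted p = 0.00615), or −0.57 without unstimulated replicate 1 (0.00587). Such a gap between groups was seen for 41.2% of all genes (22% lower and 19.2% higher) and for 23 of these 74 (31.1%; 17 lower and 6 higher).

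MRPL16, a bacterial-type protein of the subunit's core, read 9.13, 8.78 and 8.87 in unstimulated cells and 8.28, 8.20 and 8.22 after PMA. Every PMA array lay below every unstimulated array, a fall of 0.69 ± 0.11 on the log2 scale (adjusted p = 0.00302; 0.00443 without unstimulated replicate 1). MRPL48, a protein found only in mitochondria, read 8.31, 8.09 and 8.12 and then 7.43, 7.50 and 7.53. Its log2 fold change of −0.68 ± 0.10 had the smallest adjusted p of the family (0.00169), and without unstimulated replicate 1 it was −0.61 (0.00358). MRPL18 belongs to the central protuberance, where its bacterial relative binds 5S ribosomal RNA. It read 10.73, 10.45 and 10.56 and then 10.20, 10.10 and 10.09, without overlap (−0.45 ± 0.10, adjusted p = 0.0147; −0.37 and 0.0304 without unstimulated replicate 1). Its call was lost without PMA replicate 2 (0.052) and with arrays centred on their medians.

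In the small subunit 3 of 23 genes fell and none rose (13% lower, against 13.2% of all genes). Without unstimulated replicate 1 it had 2 lower and 3 higher. MRPS27, a protein built of pentatricopeptide repeats, an RNA-binding fold, read 9.83, 9.60 and 9.59 and then 9.35, 9.20 and 9.09 (−0.46 ± 0.11, adjusted p = 0.0176). MRPS14, a bacterial-type protein of the subunit's head, read 9.65, 9.30 and 9.37 and then 8.95, 9.01 and 8.98 (−0.46 ± 0.11, adjusted p = 0.0182). MRPS31, found only in mitochondria, read 6.93, 6.71 and 6.84 and then 6.41, 6.46 and 6.54 (−0.36 ± 0.10, adjusted p = 0.0279). In all 3 the highest PMA array lay below the lowest unstimulated array. MRPS31 lost its call under 9 of the 16 alternatives, among them the fit without unstimulated replicate 1 (0.0627), and MRPS27 and MRPS14 kept it there (0.0395 and 0.0279) but lost it with arrays centred on their medians and without PMA replicate 2 or PMA replicate 1 respectively. The pseudogene MRPS31P5, which resembles MRPS31 in sequence, did not pass (−0.07 ± 0.10, adjusted p = 0.666).

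All 3 rises were in the large subunit, which has 50 of the 73 protein-coding genes. They were 6% of its genes, against 13.2% of all genes. MRPL52, found only in mitochondria, read 7.31, 6.60 and 6.81 in unstimulated cells and 7.92, 7.65 and 7.47 after PMA (0.78 ± 0.20, adjusted p = 0.0219). MRPL14, which lies at the contact with the small subunit and is where the silencing factor MALSU1 docks, read 8.40, 7.69 and 7.98 and then 8.71, 8.56 and 8.63 (0.61 ± 0.17, adjusted p = 0.0338). MRPL34, counterpart of a small bacterial protein, read 8.52, 8.14 and 8.05 and then 8.80, 8.85 and 8.79 (0.57 ± 0.13, adjusted p = 0.0151). In each, the unstimulated replicate 1 array was the closest of its group to the PMA arrays, and without it the changes were 0.98, 0.79 and 0.72 (adjusted p 0.00412, 0.00373 and 0.00191). Their calls were lost when unstimulated replicate 2, unstimulated replicate 3, PMA replicate 1 or PMA replicate 2 was left out. That of MRPL14 was lost without PMA replicate 3 as well. Of all genes 19.6%, 19.6%, 18%, 20.5% and 27.4% were called in these fits, in turn, against 26.4% with all arrays.

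**Figure D3:**
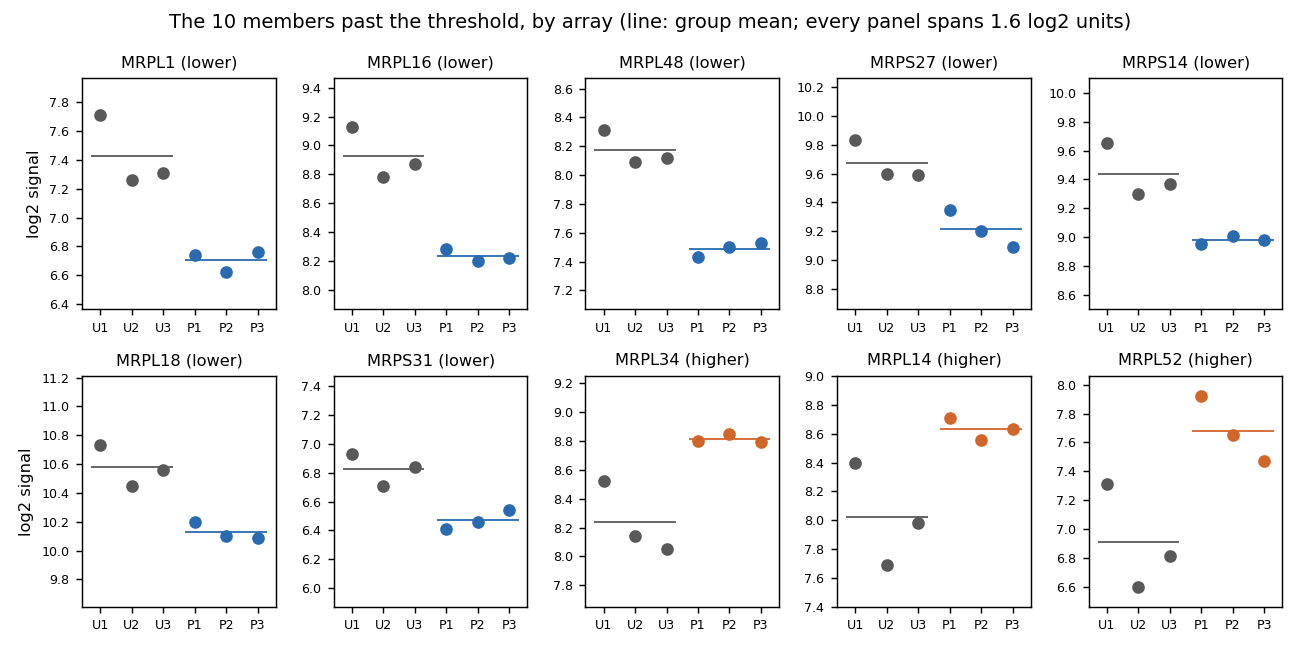
Log2 signal of the 10 genes past the threshold on unstimulated arrays 1 to 3 (U1 to U3, grey) and PMA arrays 1 to 3 (P1 to P3, blue for falls and orange for rises), with lines at the group means. In none of the 10 do the groups overlap, and U1 is the highest unstimulated array in every panel. It therefore widens the distance between the group means in the 7 falls and narrows it in the 3 rises.

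Promoter sequences of these genes were searched for short words, none of which stood in most of them. RefSeq promoters (250 bases before to 50 after a transcription start, GRCh38.p14; the first start listed where a gene has several) were found for 66 of the 73 protein-coding genes. They were searched on both strands for exact matches to a core of the ETS family, to which the mitochondrial regulator GABPA belongs (CCGGAAG), to a core of YY1 (AAGATGGC) and to the consensus of NRF1, nuclear respiratory factor 1. The ETS word ends in the letters that start the YY1 word, so that matches can overlap; 7 promoters held both words and in 0 of them did the matches share bases. The ETS word stood in 28 of 66 promoters (42.4%), against 10.7% of all 27305 genes with a promoter and 14.8% of the 13771 protein-coding genes tested. The YY1 word stood in 18 (27.3%, against 3.03% and 4.15%), and the NRF1 word in 8 (12.1%, against 6.28% and 9.04%). The TATA box word (TATAAA) stood in 2 (3.03%, against 12% and 9%). Among the 7 genes that fell, 3 held the ETS word, 1 the YY1 word and 0 the NRF1 word; among the 3 that rose, MRPL52 held the ETS and YY1 words, MRPL14 the NRF1 word and MRPL34 none of them. A match is a description of letters and not a site of binding. The shares in other lists of mitochondrial genes were not counted, so these shares cannot be called particular to the family.

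The sequences below are those of the 3 largest falls, of MRPS27 and of the largest rise, from 200 bases before to 30 after the start, 5′ to 3′, with matches to the ETS, YY1 or NRF1 word in capitals. By exact matches to these words, the falls shown do not share 1 layout. MRPL1 holds no exact match. MRPL16 and MRPL48 hold the ETS word with its first base at −6 and −63 from the start, and MRPS27 holds the YY1 word at 17. MRPL52, the rise, holds the YY1 word at −98 and −64 and the ETS word at −5. Near matches were not searched for.
MRPL1 (chr4:77862630-77862859, plus strand): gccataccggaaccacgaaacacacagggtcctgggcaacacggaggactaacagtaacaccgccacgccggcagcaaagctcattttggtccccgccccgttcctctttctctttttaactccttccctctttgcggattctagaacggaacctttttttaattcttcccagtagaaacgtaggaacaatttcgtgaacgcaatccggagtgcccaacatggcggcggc
MRPL16 (chr11:59810749-59810978, minus strand): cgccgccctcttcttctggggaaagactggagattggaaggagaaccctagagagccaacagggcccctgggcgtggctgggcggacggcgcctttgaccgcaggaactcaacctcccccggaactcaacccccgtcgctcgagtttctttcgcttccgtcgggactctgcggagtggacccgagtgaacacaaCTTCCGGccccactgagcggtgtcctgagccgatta
MRPL48 (chr11:73787674-73787903, plus strand): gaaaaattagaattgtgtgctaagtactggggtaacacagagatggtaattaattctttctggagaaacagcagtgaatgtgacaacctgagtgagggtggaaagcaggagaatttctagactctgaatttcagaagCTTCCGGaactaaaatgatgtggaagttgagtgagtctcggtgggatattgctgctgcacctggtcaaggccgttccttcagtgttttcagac
MRPS27 (chr5:72320211-72320440, minus strand): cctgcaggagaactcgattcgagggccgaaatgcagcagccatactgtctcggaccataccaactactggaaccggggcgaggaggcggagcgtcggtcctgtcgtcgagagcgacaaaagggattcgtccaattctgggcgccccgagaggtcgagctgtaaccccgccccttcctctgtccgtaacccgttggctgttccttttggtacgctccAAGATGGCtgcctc
MRPL52 (chr14:22829687-22829916, plus strand): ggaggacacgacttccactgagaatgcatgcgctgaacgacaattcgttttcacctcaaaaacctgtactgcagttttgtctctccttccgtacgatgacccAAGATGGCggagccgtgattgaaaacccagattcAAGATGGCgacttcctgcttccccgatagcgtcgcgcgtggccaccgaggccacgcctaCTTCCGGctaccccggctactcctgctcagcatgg

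Many of these genes also share their start region with a gene on the other strand. A start on the opposite strand lay within 1000 bases upstream for 24 of the 66 (36.4%), against 23% of the protein-coding genes tested. MRPL46 and MRPS11 face each other in this way, 320 bases apart; MRPL46 stood at 0.06 ± 0.17 and MRPS11 at 0.31 ± 0.14 (log2 fold change ± standard error), and neither passed. MRPS12 faces SARS2, the mitochondrial seryl-tRNA synthetase, at 181 bases, and neither passed (−0.24 and −0.37; adjusted p = 0.380 and 0.0649). Of the 18 facing genes that were tested, 1 rose and 3 fell, 4 of 18 against a background of 26.4%. The riser was TMEM63B (1.71, adjusted p = 3.34e-05), which faces MRPL14 at 240 bases and is named here after its value was seen. TCP1 faces MRPL18 and PTCD2 faces MRPS27, and they did not pass (−0.02 and −0.14; adjusted p = 0.944 and 0.434).

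The other 64 genes did not pass, and their log2 fold changes ran from −0.48 to 0.55. All 64 had a 95% interval inside ± 1 log2 unit, so that a 2-fold change lies outside these unadjusted intervals. In 35 of them the interval lay inside ± 0.5, and in the rest it reached past 0.5 on at least 1 side. Some intervals did not include 0, among them those of MRPL17 (0.15 to 0.96) and MRPS25 (−0.87 to −0.09). Nearest to the threshold was MRPL17, a bacterial-type protein near the tunnel by which the new chain leaves. It read 10.35, 9.76 and 9.90 in unstimulated cells and 10.79, 10.49 and 10.39 after PMA, without overlap (0.55 ± 0.17, adjusted p = 0.0525). It passed under 9 of the 16 alternatives, among them the fit without unstimulated replicate 1 (0.73, adjusted p = 0.00976). On the other side stood MRPS25, at 9.02, 8.35 and 8.50 and then 8.18, 8.16 and 8.08 (−0.48 ± 0.17, adjusted p = 0.0716). Its groups did not overlap either, but without unstimulated replicate 1 its fold change was −0.28 (0.0784).

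Proteins that receive the translation factors gave negative values that did not pass. MRPL12, the stalk protein that recruits factors and also binds the mitochondrial RNA polymerase, read 9.11, 8.60 and 8.45 and then 8.31, 8.32 and 8.49 (−0.35 ± 0.17, adjusted p = 0.188). Its groups overlapped. MRPL11 at the base of the stalk stood at −0.34 ± 0.15 (0.144) and MRPL10, which anchors MRPL12, at −0.13 ± 0.10 (0.381). Without unstimulated replicate 1 the 3 values were −0.15, −0.17 and −0.11.

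Around the exit of the new chain, MRPL45, which holds the ribosome at the inner membrane, stood at −0.23 ± 0.10 (adjusted p = 0.149), MRPL23 at −0.34 ± 0.12 (0.0877), MRPL22 at −0.16 ± 0.11 (0.361) and MRPL24 at 0.14 ± 0.23 (0.730). MRPL24 had the largest standard error of the family, with 9.51 on unstimulated replicate 1 against 8.53 and 8.77. MRPL58, which frees chains from stalled ribosomes, overlapped between groups (−0.09 ± 0.12, adjusted p = 0.634). In the small subunit, MRPS12 of the decoding centre stood at −0.24 ± 0.18 (0.380) and MRPS2 at −0.01 ± 0.19 (0.979). MRPS2 shows what the displaced array does to a value: it read 9.67, 8.95 and 8.98 and then 9.28, 9.08 and 9.20, so that the PMA arrays lay between unstimulated replicate 1 and the other unstimulated arrays.

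Leaving out unstimulated replicate 1 added 10 rises to the 3 and no fall. They were MRPL4, MRPL17, MRPL19, MRPL24, MRPL32, MRPL35, MRPL38, MRPS10, MRPS11 and MRPS23, with log2 fold changes between 0.37 and 0.73. By direction, 17.6% of the family then rose and 8.11% fell, where 13.3% and 12.5% of all genes did so. MRPL35 read 8.11 and 8.25 on the remaining unstimulated arrays and 8.57, 8.53 and 8.55 after PMA (0.37, adjusted p = 0.0288), while unstimulated replicate 1 was at 8.84, above every PMA array. MRPS23 read 6.96 and 7.18 against 7.57, 7.54 and 7.48 (0.46, adjusted p = 0.0191), with unstimulated replicate 1 at 7.72. MRPS11 read 9.63 and 9.68 against 10.17, 10.00 and 10.18 (0.46, adjusted p = 0.0170), with unstimulated replicate 1 at 10.10. The sign of the fold change differed between the fits for 10 genes, none of which passed in either. With 2 arrays in 1 group this fit rests on fewer samples, and nothing in the labels marks the array as faulty. The array was singled out because these genes read high on it, so leaving it out raises most of their fold changes by construction. The shares and adjusted p-values of this fit are therefore no separate evidence of a rise. Leaving out unstimulated replicate 2 or 3 instead gave 0 rises, with 19.6% of all genes called in each fit.

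**Figure D4:**
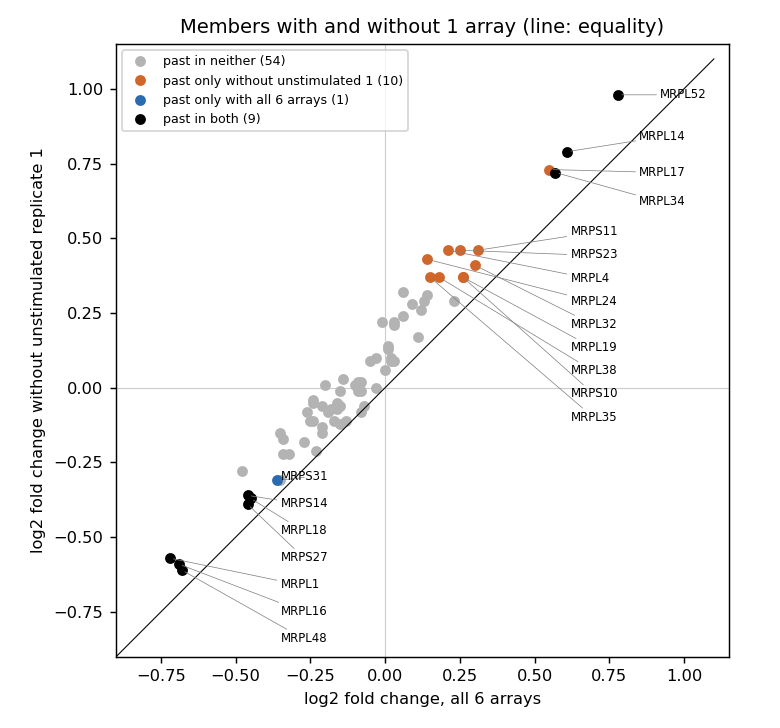
Log2 fold change of the 74 genes with all 6 arrays (horizontal) and without unstimulated replicate 1 (vertical); the line marks equal values. Nearly all points lie above the line, because the array left out was singled out for its high values in these genes. In both fits 9 genes pass (black), 1 only with all arrays (blue, MRPS31) and 10 only without the array (orange).

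By subunit and by ancestry the counts moved with unstimulated replicate 1. With all arrays 26.4% of all genes were called. The large subunit had 7 of 50 genes called (14%, 4 lower and 3 higher, median −0.09) and the small subunit 3 of 23 (13%, 3 lower, median −0.03). Proteins with a bacterial counterpart had 6 of 43 called (14%, 4 lower and 2 higher, median −0.13). Those found only in mitochondria had 4 of 30 (13.3%, 3 lower and 1 higher, median −0.09). Without unstimulated replicate 1 the large subunit had 4 lower and 10 higher (28% called) and the small subunit 2 lower and 3 higher (21.7%). Proteins with a bacterial counterpart then had 14 of 43 called (32.6%; 4 lower and 10 higher), and those found only in mitochondria 5 of 30 (16.7%; 2 lower and 3 higher), against 25.9% of all genes. Differences between these classes were not tested. The 3 probe sets of MRPS18B and the 2 of MRPL20 held identical values on every array, so they are no separate readings. Those of MRPL36 differed in level, at 10.14, 10.28 and 9.98 against 9.38, 8.89 and 9.10 on unstimulated arrays 1 to 3. Their fold changes differed in sign (−0.08 ± 0.13 and 0.09 ± 0.13), neither past the threshold. On the dimmer probe set, unlike the one used here, unstimulated replicate 1 was above both other unstimulated arrays.

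Of 4 measured proteins of the particle outside the naming rule, 1 fell (25%, where 26.4% of all genes were called). PTCD3, a pentatricopeptide repeat protein of the small subunit, read 9.78, 9.54 and 9.73 and then 9.11, 9.25 and 9.26 and fell (−0.48 ± 0.10, adjusted p = 0.0108; −0.43 and 0.0269 without unstimulated replicate 1). DAP3, a GTP-binding protein of the small subunit, stood at −0.14 ± 0.12 (0.448), GADD45GIP1 at −0.04 ± 0.11 (0.831) and CHCHD1 at 0.04 ± 0.10 (0.821).

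Factors that build the particle moved in both directions. Of 27 assembly and ribosomal RNA factors measured, 4 fell and 3 rose, 25.9% against 26.4% of all genes, with a median of −0.19. Without unstimulated replicate 1, on which 23 of the 27 lay above both other unstimulated arrays, 3 fell and 6 rose (33.3% against 25.9%, median −0.10). MTERF3, DHX30 and TRUB2 passed in that fit and not with all arrays, at 0.64, 0.41 and 0.51 on the log2 scale. NSUN4, which methylates the small subunit's RNA and works in joining the subunits, read 9.59, 9.31 and 9.47 and then 8.81, 8.73 and 8.79 (−0.68 ± 0.10, adjusted p = 0.00198). METTL15, another methyltransferase of that RNA, fell (−0.51 ± 0.10, 0.00847), as did the GTPase NOA1 (−0.38 ± 0.09, 0.0140) and the methyltransferase MRM2 (−0.37 ± 0.11, 0.0356), the last not without unstimulated replicate 1 (0.0692). The endonuclease YBEY (0.60 ± 0.10, adjusted p = 0.00294), NGRN (0.59 ± 0.13, 0.0148) and MPV17L2 (0.51 ± 0.14, 0.0305) rose.

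Among 15 translation factors measured, 2 rose and 2 fell (26.7% against 26.4% of all genes, median −0.05), and the counts were 2 and 2 without unstimulated replicate 1 as well. MTFMT, which formylates the initiator tRNA, had the largest rise, from 8.04, 7.70 and 7.72 to 8.90, 8.57 and 8.57 (0.86 ± 0.14, adjusted p = 0.00295). The release factor gene MTRF1L rose (0.45 ± 0.10, 0.0111) and its relative MTRF1 fell (−0.50 ± 0.10, 0.00967). LRPPRC, which keeps mitochondrial messages stable, fell (−0.54 ± 0.09, 0.00306). The elongation factor TUFM (−0.22 ± 0.15, 0.352) and the membrane insertase OXA1L (−0.01 ± 0.10, 0.949) did not pass. Of 19 mitochondrial aminoacyl-tRNA synthetases and related enzymes, FARS2, NARS2 and RARS2 fell, by 0.55, 0.41 and 0.34 on the log2 scale, and HARS2 rose (0.47), 21.1% of the list against 26.4% of all genes. Without unstimulated replicate 1 there were 1 lower and 1 higher (CARS2, 0.33, adjusted p = 0.0461). FARS2 alone of these kept its call without unstimulated replicate 1 (adjusted p = 0.0103).

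Of 17 genes that maintain and transcribe mitochondrial DNA, 2 fell and 1 rose (17.6% against 26.4% of all genes), with the same counts without unstimulated replicate 1. TOP1MT, the mitochondrial topoisomerase, read 9.74, 9.46 and 9.54 and then 8.31, 8.23 and 8.04 (−1.39 ± 0.11, adjusted p = 0.000131; −1.31 and 0.000362 without unstimulated replicate 1), a larger fall than that of any mitochondrial ribosomal protein gene. POLG2, a polymerase subunit, fell (−0.85 ± 0.16, 0.00691) and PRORP, which trims mitochondrial tRNAs, rose (0.41 ± 0.10, 0.0172). TFAM, which packs and transcribes that DNA, stood at 0.20 ± 0.15 (0.405) and the RNA polymerase POLRMT at 0.34 ± 0.15 (0.137).

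Of 15 regulators of mitochondrial genes, 1 rose and 3 fell (26.7% against 26.4% of all genes), and 1 and 3 without unstimulated replicate 1. NRF1, nuclear respiratory factor 1, read 7.38, 7.38 and 7.35 and then 6.99, 7.11 and 7.02 (−0.33 ± 0.08, adjusted p = 0.0233). MYC fell (−0.89 ± 0.12, 0.00132) and so did CREB1 (−0.37 ± 0.09, 0.0183). The coactivator PPARGC1A rose from 4.77, 4.69 and 4.68 to 5.48, 5.47 and 5.74 (0.85 ± 0.10, 0.000891), still below the median of every array. GABPA (−0.01 ± 0.11, 0.961), ESRRA (0.08 ± 0.14, 0.750) and PPARGC1B (−0.08 ± 0.13, 0.708) did not pass. These regulators as a list were not displaced on unstimulated replicate 1 (7 of 15 above both other arrays, median lead 0.02).

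The ribosome of the cytosol gave calls in 1 direction. Of 68 cytosolic ribosomal protein genes, 18 fell and 0 rose (26.5%, median −0.23). Of all genes 26.4% were called, 13.2% as lower. Of the cytosolic genes 13 fell and 0 rose without unstimulated replicate 1. The falls numbered 9 with arrays centred on their medians, 10 with cyclic loess and 3 without PMA replicate 1. They numbered 6 without PMA replicate 2, unstimulated replicate 2 or unstimulated replicate 3. In these settings, in turn, 25.6%, 26.7%, 18%, 20.5%, 19.6% and 19.6% of all genes were called in either direction. Of those calls 49.6% to 61.8% were rises. The nuclear-encoded respiratory chain and ATP synthase subunits, the partners of the proteins that mitochondrial ribosomes make, had 6 lower and 0 higher of 68 (8.82% against 26.4% of all genes, median −0.12), and 4 lower and 7 higher without unstimulated replicate 1. Centring arrays on their medians left 3 lower and 0 higher (median −0.04), and cyclic loess gave 5 and 2. Dropping PMA replicate 1 left 3 lower, as did dropping PMA replicate 2 or, in turn, unstimulated replicate 3. Mitosis and replication genes had 11 of 16 lower with all arrays and without unstimulated replicate 1, and 7 with arrays centred on their medians or without PMA replicate 1 or PMA replicate 2. Differences between these lists and the mitochondrial ribosomal proteins were not tested.

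**Figure D5:**
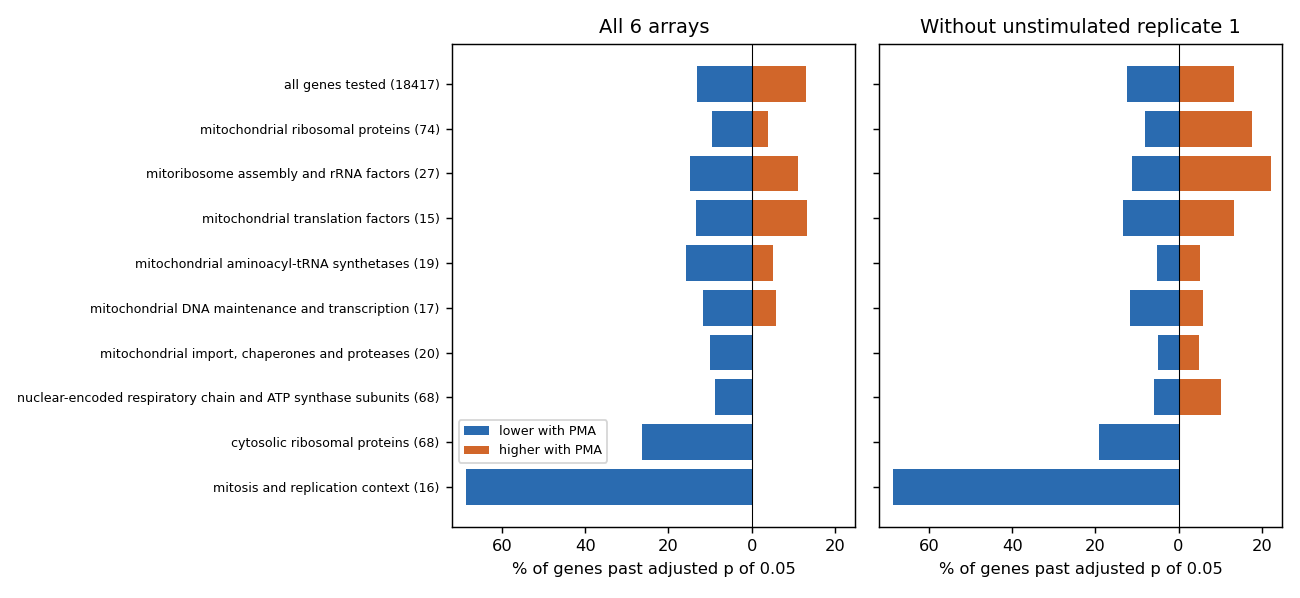
Bars give the percentage of genes lower (blue, left) and higher (orange, right) with PMA at an adjusted p of 0.05 for all genes, the mitochondrial ribosomal proteins and 8 related lists (number measured in brackets), with all 6 arrays (left panel) and without unstimulated replicate 1 (right panel). Leaving the array out changes the mitochondrial ribosomal proteins from 7 lower and 3 higher to 6 lower and 13 higher, and leaves 11 mitosis and replication genes lower.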

How the data were processed

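The authors' deposited table holds log2 values from single-channel Affymetrix arrays of biotin-labelled total RNA, 1 per probe set and array. The submitters' processing notes name RMA and Partek; the sources used here give no version of either. RMA, as usually run, subtracts background, aligns the arrays' distributions and summarises probes, which compresses changes near background. The number of arrays limits the precision.

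Gene names came from the array platform's annotation, with symbols updated by gene ID to GRCh38.p14 (19429 of 19460 probe sets with 1 symbol). Of 33297 probe sets, 1754 with several symbols and 12083 not named there were left out. Samples were grouped by title. The groups were compared on the log2 scale by limma 3.58.1 (R 4.3.3; lmFit and eBayes with group as the only term) across all 18417 genes, without a filter on dim genes, and p-values were adjusted by Benjamini-Hochberg. Intervals are unadjusted and use limma's standard errors. The fit was tested on simulated data with independent noise and planted changes of 1 and 2 log2 units. It called 80.5% and 96.8% of these. Changes as small as those of this family, and a displaced array, were not simulated. The planted changes were in a far smaller share of genes than the 26.4% called in the data. The adjusted threshold, and so these rates, are therefore not those of the real comparison.

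The genes and lists were chosen with earlier results of these data known. All genes of the family could be named; from other lists, up to 4 of the largest changes past the threshold and a preset group of regulators and factors were named, with all calls of the assembly list, TMEM63B, PTCD2, TCP1, SARS2, MTERF3, DHX30, TRUB2, CARS2, TOMM40, MSR1, CD14 and the other marker genes named in addition. Motif words and facing genes were chosen after the arrays were analysed. Samples of 1 number correlated in their deviations from the group means by 0.18, −0.02 and 0.05 for replicates 1 to 3. Samples of different numbers correlated by −0.15 to 0.11. The numbers were not taken as pairs, but whether the samples are paired cannot be told from these values or from the labels. Figures were drawn with matplotlib 3.10.9.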

Additional observations from a re-analysis of the deposited data

How the results depend on the processing

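Across 16 alternatives for the 24 genes of the family that passed under any of them, 320 values kept their direction and their side of the threshold, 34 lost a call, 29 gained one and 1 changed sign. That was MRPL24, at 0.14 with all arrays, −0.06 without unstimulated replicate 2 (neither past the threshold) and 0.43 without unstimulated replicate 1 (past it). MRPL1, MRPL16 and MRPL48 kept their call under all 16. The count of falls (7) was 3 with arrays centred on their medians and 3 at an adjusted p of 0.01. The count of rises (3) was 7 with cyclic loess, 9 with array quality weights and 0 at an adjusted p of 0.01, where 2824 of all genes were called. Leaving out 1 array at a time gave 4 to 9 falls and 0 to 13 rises, with 3323 to 5042 of all genes called. The family median was then −0.159 to 0.005, and the family median minus that of all genes −0.138 to 0.028. A replicate block, with the replicate numbers as a term, gave 6 falls and 4 rises. Whether the numbers pair the samples is not stated in the labels. Except for the threshold and the arrays left out, the cause of these changes was not tested. The genes of the family all lay above every array's lower quartile, which is not a measure of background, and their standard errors were 0.09 to 0.23.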

Other observations

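Few genes for the import and quality control of mitochondrial proteins passed the test. Of 20 import, chaperone and protease genes measured, 2 fell and 0 rose (10%, where 26.4% of all genes were called; median −0.08). LONP1, the matrix protease, fell (−0.48 ± 0.12, adjusted p = 0.0190 in limma with 3 arrays per group), and so did the import receptor TOMM70 (−0.28 ± 0.09, 0.0490), the latter not without unstimulated replicate 1 (0.0943). Without that array 1 gene of the list fell and 1 rose, the import channel TOMM40 (0.45, adjusted p = 0.0152; 0.17 and 0.657 with all arrays). Of 11 outer membrane and matrix genes, 2 rose and 1 fell (27.3%, where 26.4% of all genes were called), with the same counts without unstimulated replicate 1. The superoxide dismutase SOD2 rose from 7.91, 7.91 and 7.95 to 9.37, 10.24 and 8.88 (1.57 ± 0.30, 0.00638). IDH3A of the citric acid cycle rose (0.55 ± 0.17, 0.0468) and the channel VDAC3 fell (−0.47 ± 0.09, 0.00713). On unstimulated replicate 1, 10 of these 11 and 15 of the 20 import genes lay above both other unstimulated arrays.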
